A study of Mus musculus with 2 samples.

Results

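The 9 transcription factors described here, Neurog3, Neurod1, Insm1, Pax4, Pax6, Isl1, Lmx1a, Etv1 and Rfx6, act in the enteroendocrine lineage, the hormone-producing cells of the gut epithelium. They were taken as a named list from a matrix of 31053 genes, in which all 9 were found, and were followed across cells of mouse small intestinal organoids, cultured outgrowths of the gut epithelium. A control and a melatonin-treated library are labelled, 1 of each, with no genotype or strain stated, and each library pooled cells of 3 organoid lines on culture day 3. The deposited files of both samples hold 1 and the same matrix, in which 12364 barcodes carry suffix 1, called set 1, and 9442 carry suffix 2, called set 2. No label ties a suffix to a treatment, so control and melatonin were not compared, and the direction set 2 over set 1 is arbitrary. Values pooled over both sets may therefore mix the treatments.

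Cells were the 4066 barcodes with at least 500 genes, at least 1000 unique molecular identifiers (UMIs, each a counted RNA molecule) and at most 20% mitochondrial UMIs, 2300 of them in set 1 and 1766 in set 2. Values are given as UMIs of a gene per 1000000 UMIs of a class of cells (CPM) with 95% Poisson intervals. These intervals cover counting error only, since the matrix was treated as 1 sample without replicates and no test was possible. A barcode sequence that occurs with both suffixes was carried by 7 kept cells, 1 of them among the gated cells described below.

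Enteroendocrine cells arise from secretory progenitors in which Notch signalling is low. The basic helix-loop-helix factor Neurog3 is switched on for a short time and starts the programme, after which Neurod1, Insm1, Pax4 and Rfx6 act in the young endocrine cell. Further factors go with the choice of product. Lmx1a is a LIM homeodomain factor of serotonin-producing enterochromaffin cells, which use the enzyme Tph1, while Isl1, Pax6 and Etv1 are known from cells that make peptide hormones.

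Cells were gated in a fixed order. Neurog3-positive cells had at least 3 Neurog3 UMIs and at least 1 per 10000 of the cell's UMIs. Of the rest, Tph1-positive cells had at least 5 Tph1 UMIs and at least 3 per 10000, and hormone-positive cells had at least 20 UMIs and at least 10 per 10000 over 9 peptide hormone genes. All remaining cells are called other cells. The gates took 203 Neurog3-positive, 207 Tph1-positive and 187 hormone-positive cells, 597 in all (14.7% of kept cells, exact binomial interval 13.6% to 15.8%), and left 3469 other cells. Levels of Neurog3, Tph1 and the hormones in these classes follow from the gates and are descriptions only.

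Each gated class, taken as a sum over its cells, held the general markers of its lineage. In each of the 3 classes, 10 of 10 general enteroendocrine markers were at least 2-fold higher than in other cells, where 26.1%, 26.7% and 21.2% of all genes were for Neurog3-, Tph1- and hormone-positive cells, and in Tph1-positive cells 7 of 7 enterochromaffin markers were, a list that holds Lmx1a and the gate gene Tph1. Absorptive markers summed to 1563 CPM in gated and 5480 CPM in other cells, and mesenchymal markers to 0.202 and 0.185 CPM. Goblet markers went the other way and summed higher in each of the 3 classes than in other cells, with the values given below. Of the 203 Neurog3-positive cells, 117 also met the Tph1 gate alone, 21 the hormone gate alone, 13 both and 52 neither. Of the 207 Tph1-positive cells, 8 also met the hormone gate and held 4809 of the 5815 hormone UMIs of that class. Among hormone-positive cells, Cck was the leading hormone in 138 and Gip in 32, and no other hormone led in more than 5 cells. Near the limits of the gates, 29 other cells would pass a gate with its limits halved, and 66 gated cells would fail all gates with their limits doubled.

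Promoters are shown for 3 members whose levels marked off the classes described below: Neurog3 itself, Isl1 of the peptide-hormone cells and Lmx1a of the Tph1-positive cells. Each is the 250 bases before the RefSeq start on GRCm38.p6, 5′ to 3′ on the gene's strand. Neurog3 is at chr10:62132840-62133089 on the plus strand, Isl1 at chr13:116309689-116309938 on the minus strand and Lmx1a at chr1:167689308-167689557 on the plus strand. In the GENCODE annotation the Neurog3 window lies outside the gene, the Isl1 window overlaps it by 1 base, and the Lmx1a window lies within the gene, downstream of an earlier annotated start. Capitals mark the letters CANNTG, the E-box that basic helix-loop-helix factors such as Neurog3 and Neurod1 can bind.
Neurog3: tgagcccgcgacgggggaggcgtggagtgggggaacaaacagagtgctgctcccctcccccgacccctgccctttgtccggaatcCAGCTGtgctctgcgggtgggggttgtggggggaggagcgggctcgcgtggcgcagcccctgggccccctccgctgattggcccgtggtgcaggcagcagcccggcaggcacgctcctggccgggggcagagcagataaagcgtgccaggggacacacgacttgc
Isl1: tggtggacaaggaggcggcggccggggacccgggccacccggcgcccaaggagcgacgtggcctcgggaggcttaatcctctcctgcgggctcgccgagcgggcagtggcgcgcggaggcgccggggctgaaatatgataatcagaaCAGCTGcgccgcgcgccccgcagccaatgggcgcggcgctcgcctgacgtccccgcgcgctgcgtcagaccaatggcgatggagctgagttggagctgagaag
Lmx1a: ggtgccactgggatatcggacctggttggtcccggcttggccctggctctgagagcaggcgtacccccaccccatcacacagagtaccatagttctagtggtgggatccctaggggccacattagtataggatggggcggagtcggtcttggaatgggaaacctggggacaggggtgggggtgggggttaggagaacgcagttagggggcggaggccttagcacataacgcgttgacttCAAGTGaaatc
The letters were CAGCTG in Neurog3, beginning 165 bases before the start, CAGCTG in Isl1, beginning 103 bases before it, and CAAGTG in Lmx1a, beginning 11 bases before it. RefSeq promoters were matched for 7 of the 9 members, 9 promoters in all, and 6 of these held CANNTG, which reads the same on both strands as a pattern. Of all 32851 promoters in the table, 66.2% held it. The narrower E-box CAGATG, searched with its reverse CATCTG, stood in 1 of the members' 9 promoters, the second of Etv1, and in 14.4% of all promoters. A match is a description of the letters and not a binding site.

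**Figure D1:**
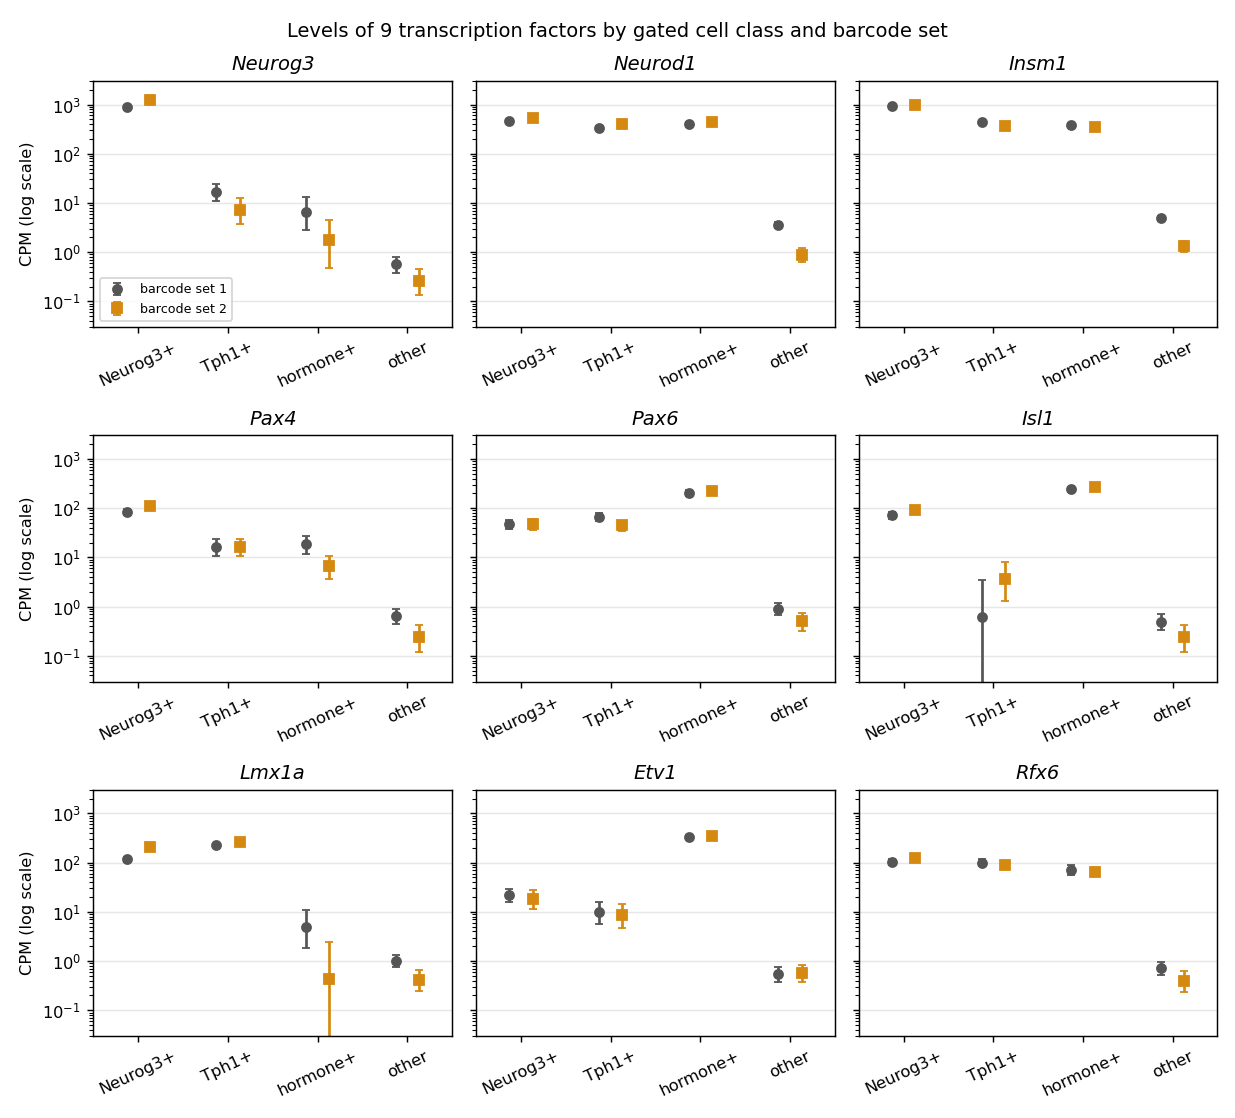
Level of each of the 9 factors in CPM (log scale) in Neurog3-positive, Tph1-positive, hormone-positive and other cells, with circles for barcode set 1, squares for set 2 and bars for 95% Poisson intervals. Each factor is lowest in other cells, with Lmx1a of set 2 in hormone-positive cells and Isl1 of set 1 in Tph1-positive cells nearly as low on 1 UMI each, and Isl1 and Lmx1a take opposite places in Tph1-positive and hormone-positive cells.

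All 9 factors were concentrated in the gated cells. With a ratio of CPM plus 1 of at least 2 as the rule, 9 of 9 were higher in gated than in other cells, where 25.3% of 15474 genes with at least 10 UMIs were higher by the same rule. The members' median log2 ratio of CPM plus 1 was 6.38, beside 0.34 over all those genes. Ratios printed with intervals, here and below, are of CPM without the added 1. Neurod1, a basic helix-loop-helix factor of endocrine differentiation, stood 179.5-fold higher (157.7 to 205.2), and Insm1, a zinc-finger repressor of non-endocrine genes, 170.1-fold (152.5 to 190.4). Isl1 showed a ratio of 309.8 (225.3 to 438), and Pax4, a paired-box repressor, the smallest ratio, 84.7 (62.4 to 117). With 1 CPM added, the log2 ratios were 6.98 for Neurod1, 7.03 for Insm1, 6.43 for Isl1 and 4.77 for Pax4, again the smallest. The 597 gated cells held from 89.1% (Pax4) to 98.7% (Neurog3, a gate gene) of each member's UMIs in kept cells. Against other cells, 9 of 9 members were higher in Neurog3-positive cells (background 26.1%), 9 of 9 in Tph1-positive cells (26.7%) and 8 of 9 in hormone-positive cells (21.2%), where Lmx1a was the exception. Neurog3 is in these counts and in the 9 of 9 for gated cells although the gates bound its values, so 8 members are free of the rule.

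Other cells were not free of these transcripts. Their levels ran from 0.379 CPM for Isl1 to 3.30 CPM for Insm1, and 58 of the 3469 other cells carried at least 20 Chga and Chgb UMIs per 10000, the granule proteins of endocrine cells. Those 58 cells, 44 of set 1 and 14 of set 2, held between 23.1% (Isl1) and 76.6% (Pax4) of the members' UMIs in other cells. Without them Insm1 stood at 1.54 CPM (1.30 to 1.80) and Pax4 at 0.108 CPM (0.0537 to 0.192). Whether the remainder is free RNA taken up in droplets was not tested.

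Counted per cell, a Neurog3-positive cell had a UMI of a median of 6 of the 9 members, a Tph1-positive cell of 4, a hormone-positive cell of 5 and an other cell of 0. Median depth was 13734, 14698, 18571 and 32213 UMIs in the same order, so the class with fewest members per cell was the deepest. No UMI of any member was found in 5 of the 187 hormone-positive cells, 4 of them at depths of 39202 to 72691 UMIs. These cells passed the hormone gate without any lineage factor detected. Nts led in 4 hormone-positive cells, whose median depth of 44218.5 UMIs lay in that range. With every cell thinned to 2000 UMIs the expected numbers were 3.05, 1.78, 2.38 and 0.0331 members. Insm1 is an example of the share of cells: 203 of 203 Neurog3-positive cells had a UMI of it, and after thinning 80.4% (74.2% to 85.5%) against 1.09% (0.753% to 1.51%) of other cells.

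**Figure D2:**
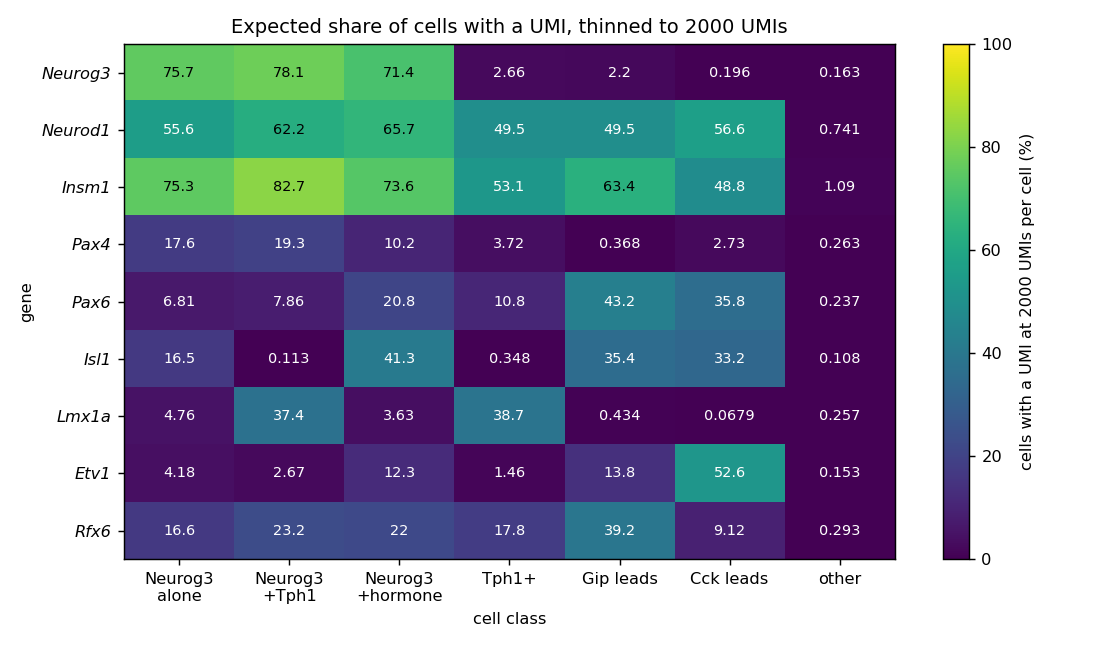
Expected percentage of cells with a UMI of each factor (rows) after thinning every cell to 2000 UMIs, by class (columns, hormone-positive cells split by their leading hormone), with the colour scale running from 0 to 100%. Neurod1 and Insm1 are high in each gated class, Lmx1a reaches 37.4% and 38.7% in the 2 columns with Tph1, and Etv1 reaches 52.6% where Cck leads against 13.8% where Gip leads.

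Neurog3, the initiating factor, had 3267 UMIs in its own class, with set 1 at 908 CPM (867 to 951) and set 2 at 1264 CPM (1200 to 1331). In the classes below its gate this leaves at most low values, 11.8 CPM (8.42 to 16.2) in Tph1-positive and 3.45 CPM (1.78 to 6.02) in hormone-positive cells. A Neurog3 UMI was still present in 28 of 207 Tph1-positive and 7 of 187 hormone-positive cells. Other cells stood at 0.428 CPM (0.311 to 0.575), with a UMI in 36 of 3469 cells.

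The factors that follow Neurog3 differed in how far they extended beyond it. Neurog3-positive cells were set against the 394 Tph1- or hormone-positive cells, and 5 of 9 members were at least 2-fold apart, where 9.77% of 12855 genes were. Neurog3, by the gate, Insm1 and Pax4 were higher in Neurog3-positive cells, and Pax6 and Etv1 lower. The members' median log2 ratio was 0.32, beside 0.11 over all genes. Summed markers of dividing cells were also higher in the Neurog3-positive cells, at 223 CPM (207 to 240) against 124 CPM (115 to 132), and goblet markers stood at 2492 and 2683 CPM. Their part in the ratios was not tested.

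Pax4 was the member most restricted to Neurog3-positive cells after Neurog3 itself. It stood at 84.3 CPM (interval 72.1 to 98.1) for set 1 and 108 CPM (interval 90.1 to 129) for set 2 of that class. In Tph1-positive cells the values were 16.5 and 16.3 CPM, and in hormone-positive cells 18.3 and 6.58 CPM. Neurog3-positive cells were thus above both other classes in each set, and the ratio to the 2 classes together was 6.93 (5.46 to 8.86). Tph1-positive and hormone-positive cells overlapped in their pooled intervals, 12.3 to 21.4 CPM and 7.49 to 14.7 CPM. Where Gip led, Pax4 had 1 UMI in 32 cells.

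Insm1 behaved as a general endocrine factor with its highest level in Neurog3-positive cells. It stood at 944 CPM (interval 902 to 988) for set 1 and 959 CPM (interval 904 to 1018) for set 2 of those cells. Tph1-positive cells had 438 and 369 CPM and hormone-positive cells 391 and 341 CPM, below the Neurog3-positive cells in each set. The ratio of Neurog3-positive to the other gated cells was 2.50 (2.37 to 2.63). Of the 32 Gip-led cells 30 had an Insm1 UMI, and their level of 573 CPM (507 to 645) was above the 351 CPM (328 to 374) of the 138 Cck-led cells.

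Neurod1 and Rfx6 were the most even of the 9 across the gated classes. Neurod1 stood at 485 CPM (461 to 510) in Neurog3-positive, 366 CPM (345 to 387) in Tph1-positive and 425 CPM (404 to 447) in hormone-positive cells. All 3 intervals were apart, but no pair of classes reached a 2-fold difference. Rfx6, a winged-helix factor of endocrine progenitors, stood at 111 CPM (99.5 to 123), 95.03 CPM (84.8 to 106) and 67.2 CPM (58.9 to 76.4) in the same order, and the first 2 of these intervals overlapped. Within hormone-positive cells Rfx6 was split by product, at 213 CPM (173 to 258) where Gip led and 44.2 CPM (36.5 to 53.1) where Cck led. That order held in both sets, with 241 against 25.2 CPM in set 1 and 190 against 53.9 CPM in set 2.

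**Figure D3:**
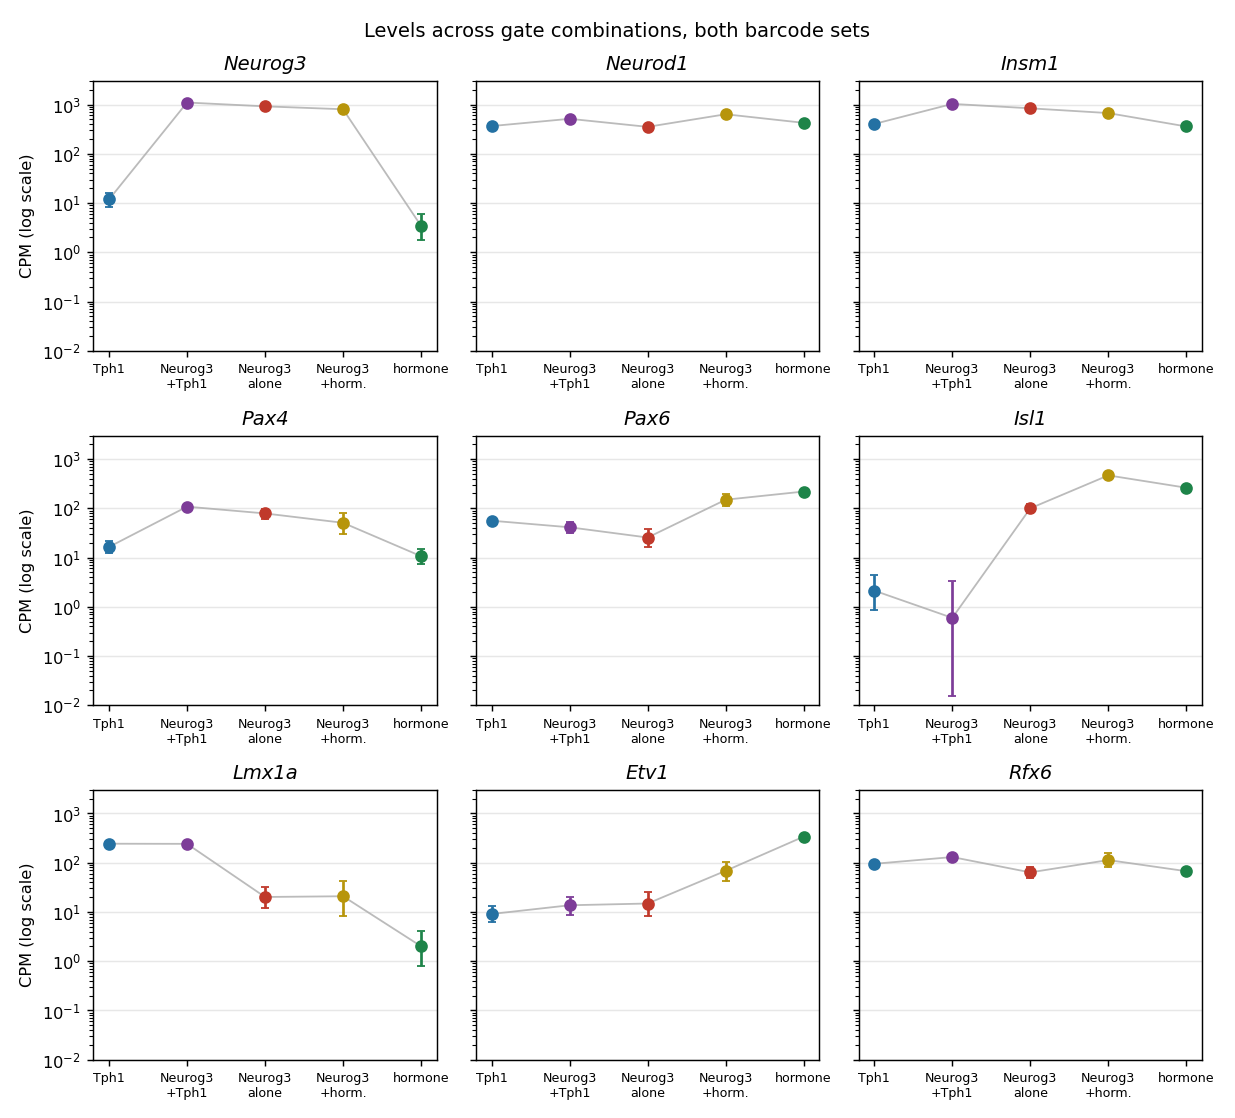
Level of each factor in CPM (log scale, both sets, bars for 95% Poisson intervals) across 5 gate combinations, from Tph1-positive cells through the 3 kinds of Neurog3-positive cells in the middle to hormone-positive cells. Lmx1a is level from Tph1-positive to Neurog3-and-Tph1-positive cells and low elsewhere, Isl1 is high from Neurog3-alone to hormone-positive cells, and the line joins classes for reading only.

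The 4 factors tied to product set the gated classes apart. Between Tph1-positive and hormone-positive cells 5 of 9 members were at least 2-fold apart, where 15.3% of 12223 genes were. Neurog3, at low levels left by the gate, and Lmx1a were higher in Tph1-positive cells, and Pax6, Isl1 and Etv1 were lower. The members' median log2 ratio was 0.17, close to the 0.16 over all genes, because the members lay on both sides of it. Goblet markers summed to 1380 CPM in Tph1-positive and 3917 CPM in hormone-positive cells and Paneth markers to 719 and 1942 CPM, and their part in these ratios was not tested. Defining goblet transcript Muc2 was low in both classes, at 2.13 and 1.15 CPM.

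Lmx1a was found where Tph1 was. It stood at 228 CPM (interval 206 to 253) for set 1 and 258 CPM (interval 234 to 284) for set 2 of the Tph1-positive cells, and 191 of those 207 cells had a UMI. Hormone-positive cells had 7 UMIs in 3 of 187 cells, 6 of them in set 1 and 1 in set 2. The ratio between the classes was 121 (58.4 to 301.7), with the width set by those few UMIs. Other cells, at 0.739 CPM (0.582 to 0.925), overlapped the pooled hormone-positive interval of 0.809 to 4.14 CPM, and the ratio of hormone-positive to other cells was 2.72 (1.06 to 5.88) on those 7 UMIs, within the 2-fold rule once 1 CPM was added.

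Isl1 had the reverse pattern. In hormone-positive cells it stood at 242 CPM (interval 214 to 271) for set 1 and 271 CPM (interval 250.2 to 293) for set 2, with a UMI in 145 of 187 cells. Tph1-positive cells had 7 UMIs, in 3 of 207 cells, 1 of them in set 1 and 6 in set 2. Hormone-positive cells were 123-fold above them (59.4 to 306). Gip-led cells stood at 334 CPM (284 to 389) and Cck-led cells at 243 CPM (224 to 263), but 3 cells held 50% of the Gip-led UMIs.

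Etv1, an ETS-family factor, was the most selective for Cck-led cells. These stood at 433 CPM (interval 390.1 to 479) for set 1 and 399 CPM (interval 370 to 430) for set 2. Gip-led cells stood at 32.4 CPM (13.0 to 66.8) and 125 CPM (86.1 to 176), below the Cck-led cells in each set, although their own intervals did not meet. Tph1-positive cells had 9.11 CPM (6.15 to 13.0), with 50% of its UMIs in 3 cells. The ratio of hormone-positive to Tph1-positive cells was 37.1 (25.9 to 55.3).

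Pax6, a paired-box and homeodomain factor, was graded and not exclusive. It stood at 206 CPM (interval 181 to 233) for set 1 and 225 CPM (interval 206 to 245) for set 2 of the hormone-positive cells. Tph1-positive cells had 67.1 CPM (55.2 to 80.9) and 44.7 CPM (35.1 to 56.1), and Neurog3-positive cells 46.9 and 47.2 CPM. Every gated class was above the 0.720 CPM (0.565 to 0.903) of other cells, and the hormone-positive cells were 3.91-fold (3.32 to 4.62) above Tph1-positive cells. Gip-led cells at 260.5 CPM (217 to 310.4) and Cck-led cells at 226 CPM (208 to 245) overlapped.

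Isl1 and Lmx1a did not meet in the same cell at 2 or more UMIs each. Among the 597 gated cells, 137 had at least 2 Isl1 UMIs, 274 had at least 2 Lmx1a UMIs and 0 had both, which allows a share of up to 0.503% of gated cells and 2.19% of the 137 cells with Isl1. In each set the number was 0, and it was 0 over all 4066 kept cells. With 1 UMI of each as the limit 2 gated cells had both, 1 in each set, and with 3 it was 0 again. Both limits were added after the first result was seen. At 2 UMIs each, the product of the separate shares of Isl1 and Lmx1a would give 62.9 gated cells with both. This product pools classes that the gates chose on Neurog3, Tph1 and hormones. Within Neurog3-, Tph1- and hormone-positive cells the products were 10.9, 1.62 and 0.61 cells. Lmx1a with Etv1 was found in 7 gated cells and Pax6 with Lmx1a in 58, also below the pooled products of 71.1 and 95.9. Within the classes, in the same order, Lmx1a with Etv1 was found in 3, 3 and 1 cells, beside products of 6.21, 4.87 and 0.733. Pax6 with Lmx1a was not below its products there, with 18, 39 and 1 cells beside 16.0, 36.5 and 0.711. Isl1 with Etv1 was found in 99 and Lmx1a with Rfx6 in 140, above the pooled products of 35.6 and 108.8. Within the classes Isl1 with Etv1 was found in 6, 2 and 91 cells, beside products of 1.24, 0.058 and 83.5. Lmx1a with Rfx6 was found there in 60, 79 and 1, beside 50.2, 68.2 and 0.299.

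**Figure D4:**
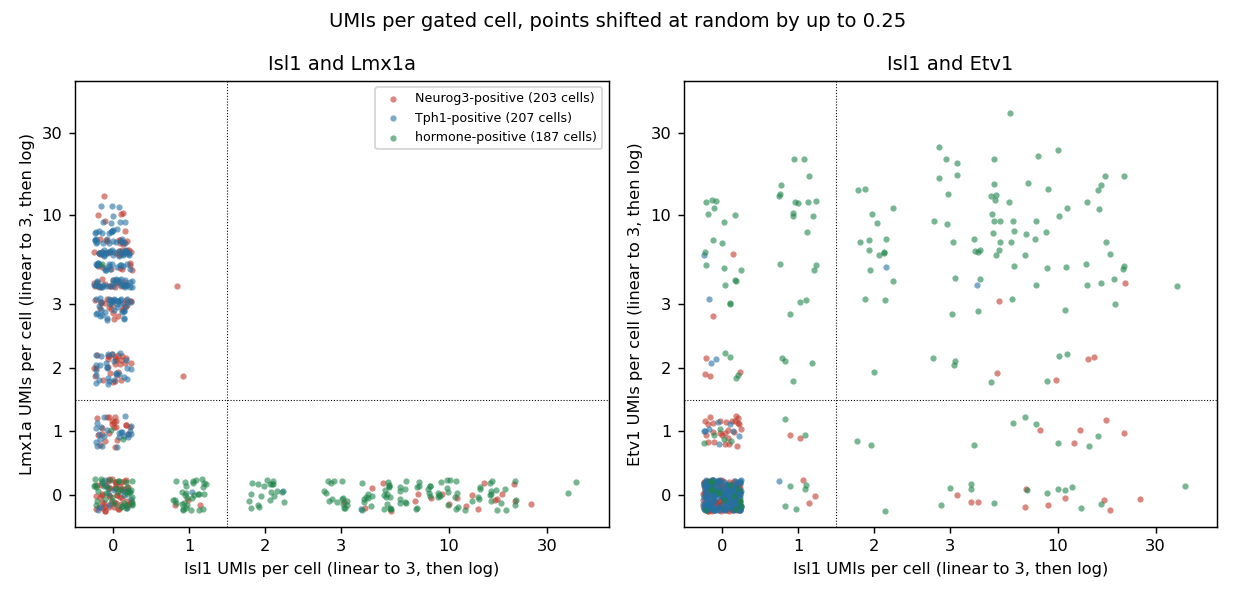
UMIs per gated cell of Isl1 (horizontal) against Lmx1a (left) and Etv1 (right), linear to 3 and logarithmic above, each point 1 of 597 cells coloured by class and shifted at random, dotted lines between 1 and 2 UMIs. The upper right field of the left plot is empty, and that of the right plot holds 99 cells.

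The split was also present among cells that held Neurog3. The 117 cells that met the Neurog3 and Tph1 gates had 406 Lmx1a UMIs and 1 Isl1 UMI, or 242 CPM (219 to 266) and 0.595 CPM (0.0151 to 3.32). The 21 cells that met the Neurog3 and hormone gates had 7 Lmx1a and 156 Isl1 UMIs, or 20.9 CPM (8.39 to 43.0) and 465 CPM (395 to 544). The 52 cells with Neurog3 alone met neither product gate, and 10 of them had at least 2 Isl1 UMIs, 5 at least 2 Lmx1a UMIs and 0 both. The product of the separate shares in these 52 cells was 0.962 cells, so that 0 says little. Isl1 in those 52 cells was uneven between the sets, 46.7 CPM (31.9 to 65.9) and 240.9 CPM (185 to 309), and 3 cells held 48.9% of its UMIs.

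Neurog3-positive cells also differed among themselves with the amount of Neurog3. They were ordered by Neurog3 UMIs into 45 cells with 3 to 5, 58 with 6 to 11, 57 with 12 to 24 and 43 with 25 or more, at median depths between 11827 and 15633 UMIs. Isl1 stood at 147 CPM (116 to 183) in the lowest of these groups, 101.3 CPM (82.3 to 123) and 81.6 CPM (64.0 to 103) in the next ones, and had a single UMI in the highest. Insm1 ran the other way, from 697 CPM (628 to 772) to 1193 CPM (1116 to 1274). Pax4, at 62.2 CPM (42.8 to 87.4) and 107 CPM (85.0 to 133), Lmx1a, at 196 and 165 CPM, and Neurod1, at 499 and 543 CPM, had overlapping intervals at the ends of this order. From the lowest group to the highest, the hormone gate alone was met by 6, 5, 8 and 2 cells and the Tph1 gate alone by 25, 36, 30 and 26. The part of this mix in the Isl1 and Pax6 values was not tested.

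Neurog3-positive cells with Tph1 were compared with cells positive for Neurog3 alone to see which members went with Tph1. Lmx1a was 12-fold (7.58 to 20.1) and Rfx6 2.05-fold (1.53 to 2.77) higher and Isl1 lower, so 3 of 9 were at least 2-fold apart, where 22.9% of 10581 genes were. The 52 Neurog3-alone cells also held more goblet marker RNA, 4958 CPM (4817 to 5103) against 699 CPM (660 to 740), and more of dividing cells, 397 CPM (357 to 439) against 143 CPM (126 to 163). Summed over the list, the goblet markers reached 775 CPM in other cells, with Tff3 and Spink4 the most abundant at 2486 and 1439 CPM in Neurog3-alone cells and Muc2 at 9.55 CPM. The part of these transcripts in the member ratios was not tested. Even these cells had 9 of 9 members above other cells (background 17%), Neurog3 among them by the gate.

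Setting Tph1-positive cells below the Neurog3 gate against those that met both gates, 3 members differed by at least 2-fold, where 8.64% of 11607 genes did. Neurog3 was lower by the gate, Pax4 was 6.57-fold (4.82 to 9.08) lower and Insm1 2.56-fold (2.38 to 2.75) lower. Lmx1a was level, at a ratio of 1.01 (0.892 to 1.14). On the hormone side, Etv1 was 4.93-fold (3.27 to 7.81) higher in hormone-positive cells below the Neurog3 gate than in those above it, and Neurog3, Pax4 and Lmx1a, the last on 7 UMIs in each group, were lower, 4 of 9 where 21.6% of 11128 genes were apart. Only 21 cells stood on one side of that comparison. Isl1 was not higher below the Neurog3 gate but 1.78-fold (1.49 to 2.11) lower, within the 2-fold limit.

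Other regulators of secretory and endocrine fate were counted from a list of 42 genes, several of them relatives of the 9. Against other cells, 26 of 37 with enough UMIs were higher in Neurog3-positive cells, where 26.1% of all genes were, and 1 was lower, with a median log2 ratio of 2.17 beside 0.33 over all genes. The 4 largest ratios belonged to Runx1t1, Neurod2, Nkx2-2 and Fev, at 369, 171, 296 and 260 CPM against 1.35, 0.243, 1.33 and 1.61 CPM. Hes1, the Notch effector that opposes Neurog3, was the 1 lower gene, at 81.9 CPM (72.3 to 92.6) against 351 CPM (347 to 354). Pou2f3 of tuft cells, Pdx1 and Atoh1 were the next smallest and stayed within 2-fold. In Tph1-positive cells 22 of 36 were higher (26.7% of all genes) and 1 lower, led by Nkx2-2, Fev, Runx1t1 and Myt1, and in hormone-positive cells 20 of 36 were higher (21.2% of all genes) and 3 lower, with Onecut3, Nkx2-2 and Prox1 among the largest ratios.

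Between Neurog3-positive cells and the other gated cells 8 of 33 of these regulators were higher and 3 lower, where 9.77% of all genes were apart in either direction. Neurod2, at 171 CPM against 27.0 CPM, Sox4, at 1035 against 176 CPM, the Notch ligand Dll1, at 38.8 against 9.15 CPM, and Rcor2, at 87.7 against 22.9 CPM, had the 4 largest ratios. Sox4 was highest in Neurog3-alone cells at 1697 CPM (1615 to 1782) and stood at 670 CPM (631 to 710) in cells with Neurog3 and Tph1 and at 234 CPM (218 to 251) in Tph1-positive cells below the Neurog3 gate. Onecut3, Pdx1 and Mnx1 were among the smallest ratios, the last within 2-fold.

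Between Tph1-positive and hormone-positive cells 13 of 32 regulators were higher and 7 lower, where 15.3% of all genes were apart in either direction. Mnx1 (47.1 against 2.59 CPM), Glis3 (44.3 against 2.59 CPM), Sox9 and Egr3 had the largest ratios. Onecut3 (3.95 against 112 CPM), Pdx1 and Hhex were among the smallest. The Hhex ratio rests on few cells, with 47 UMIs in 2.14% of hormone-positive cells, beside a UMI in 1.45% of Tph1-positive and 2.33% of other cells. An Onecut3 UMI was found in 0.966% of Tph1-positive and 42.8% of hormone-positive cells.

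The genes most like each member were taken from Pearson correlations of log-scaled UMIs per 10000 over the 597 gated cells, among 11449 genes. All cells share 1 matrix, the gates chose them partly on the genes correlated, and depth differs between them, so the coefficients are descriptions. Neurog3 was most like Neurod2 and Sox4, both at 0.62, and Insm1 and Pax4 were each most like Neurog3, at 0.58 and 0.55. Lmx1a was most like Tph1 at 0.80, Vim at 0.77 and Scn3a at 0.76, and these 3 genes led in each set. Etv1 was most like Cck and Scg2, both at 0.80, and Gcg at 0.76, again in each set. Isl1 was most like the calcium-binding protein gene Scgn at 0.71 and Nudt4 at 0.60. Pax6 was most like the potassium-channel subunit gene Abcc8 at 0.56, Cck at 0.48 and Isl1 at 0.48. Neurod1 and Rfx6 reached only 0.35, with Runx1t1 and Cd24a, and Cd24a was not among the first 3 genes for Rfx6 in set 1.

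**Figure D5:**
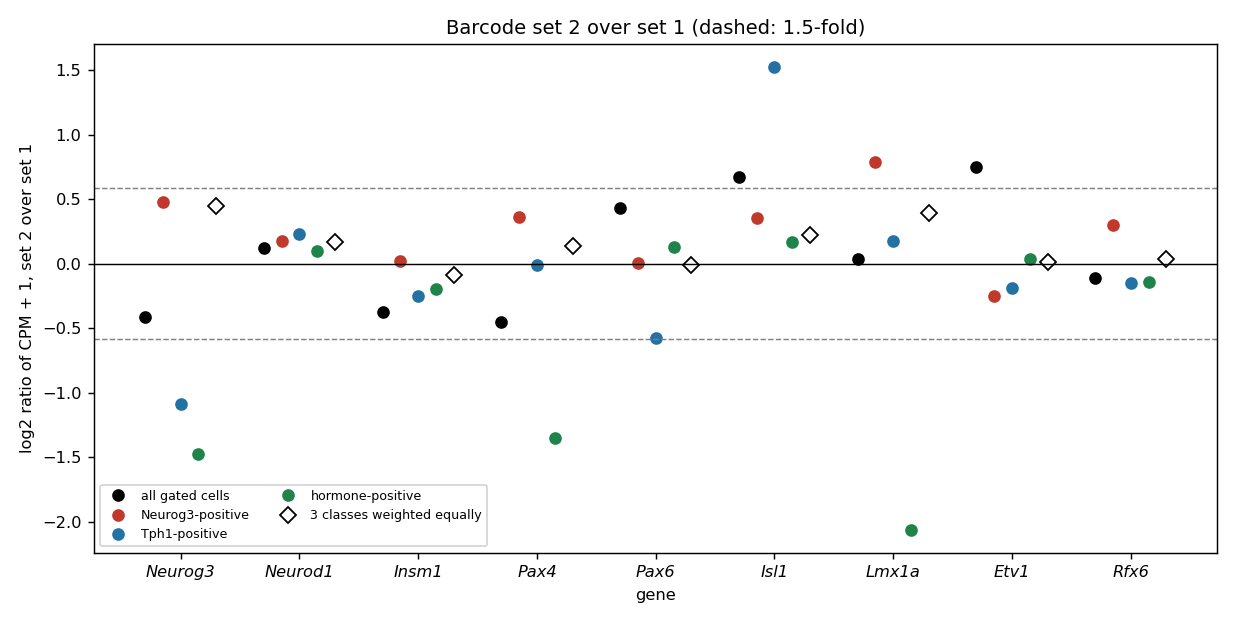
Log2 ratio of CPM plus 1 of set 2 over set 1 for each factor, in all gated cells, in each gated class and with the 3 classes given equal weight, dashed lines at 1.5-fold. Etv1 and Isl1 leave the lines for all gated cells and return to 0.01 and 0.22 with equal weights; the Isl1 value in Tph1-positive cells and the Lmx1a value in hormone-positive cells rest on 7 UMIs each.

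The sets were compared within gated cells with 1.5-fold as the rule. Etv1 stood at 460 UMIs in set 1 and 812 in set 2, a ratio of 1.68 (1.5 to 1.89), and Isl1 at 436 and 730, a ratio of 1.60 (1.42 to 1.80). They were the 2 of 9 members past the rule, where 11.6% of 12855 genes were. The mix of classes differed between the sets in the same direction, with hormone-positive cells making up 2.96% of set 1 (2.30% to 3.73%) but 6.74% of set 2 (5.61% to 8.01%), Neurog3-positive cells 5.39% and 4.47%, and Tph1-positive cells 4.52% and 5.83%. With the 3 classes given equal weight the log2 ratios were 0.01 for Etv1 and 0.22 for Isl1, and 0 of 9 members passed. Within hormone-positive cells Etv1 had a ratio of 1.02 (0.906 to 1.16) and Isl1 of 1.12 (0.975 to 1.29).

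Within single classes the sets differed in few members. In Neurog3-positive cells Lmx1a was 1.74-fold (1.44 to 2.09) higher in set 2, 1 of 9 where 20.2% of 10936 genes passed. Cells that also met the Tph1 gate alone, which held 406 of its 468 UMIs in the class, were 61 of 124 in set 1 and 56 of 79 in set 2. Among these cells Lmx1a stood at 207 CPM (178 to 238) and 284 CPM (247 to 324), and the part of the mix was not tested. In Tph1-positive cells Neurog3 alone passed, on 27 and 12 UMIs (background 16.8%). In hormone-positive cells Pax4, on 22 and 15 UMIs, and Neurog3, on 8 and 4, were lower in set 2 (background 20%). In other cells Insm1 and Neurod1 were lower in set 2, 2 of 9 where 1.71% of 14597 genes were lower, at 4.91 against 1.30 CPM and 3.56 against 0.891 CPM. Of the 58 other cells with high Chga and Chgb, 44 were in set 1 and 14 in set 2, and their part in that difference was not tested.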

How the data were processed

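UMI counts per gene and barcode were deposited by the authors as a sparse matrix of whole numbers without normalization, from a droplet-based 3' library sequenced on an Illumina instrument, per the labels' protocols. The submitters' processing notes name Cell Ranger 3.1.0, STAR 2.7.3a and bcl2fastq 2.20.0. The genome build and annotation behind the counts are not given in the sources used here, so printed coordinates and promoters come from RefSeq on GRCm38.p6. The matrix, barcode and gene files of both samples were identical (3 of 3 files) and were treated as 1 sample.

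UMIs were summed per class and divided by the class total (CPM). Total UMIs were 107997440 in set 1 and 86071133 in set 2. Intervals are 95% exact Poisson for CPM, exact Clopper-Pearson for shares and exact conditional binomial for ratios, and cover counting error only. Fold changes were called after adding a pseudocount of 1 to each CPM value, so the called ratios of low genes are understated. Ratios printed with intervals were taken without the pseudocount. The limits were 2-fold between classes and 1.5-fold between sets, for genes with at least 10 UMIs over both groups. For a count of 0, the limit set by 3 counts is stated. Shares at equal depth are the hypergeometric expectation at 2000 UMIs per cell, leaving out shallower cells. Protein comparisons that had been planned were not made. Doublets were not removed. A simulated-doublet score was used only in an alternative.

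All 9 members are named, with up to 3 most correlated genes each where r was at least 0.3, and the 4 largest and 4 smallest ratios of the regulator list per class comparison. One gene that this rule names is not reported here. The members, gates and lists were chosen with earlier results of these data known. Alternatives covered the gates, the mitochondrial limit, doublets, shared barcodes, pseudocount, per-cell means, single high cells, low counts, each set apart and scaling. Counts were simulated for Tph1-positive over hormone-positive cells (12212 genes) as Poisson sums per class, without spread between cells. On these the ratio recovered 199 of 200 changed genes, none of them among the lowest expressed. Its interval covered the true value in 94.5% of those 200 genes, and 1.07% of unchanged genes were called. The interval assumes the same Poisson model, so this coverage does not extend to spread between cells. Python 3.11.15 was used with numpy 2.4.6, scipy 1.17.1, pandas 2.3.3, scikit-learn 1.9.0 and matplotlib 3.10.9.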

Additional observations from a re-analysis of the deposited data

Results flagged for a closer look

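Member transcripts were also counted in the 9781 barcodes that met the gene and UMI limits but had over 20% mitochondrial UMIs, which no comparison above used. They are listed because their levels lay above the 0.0501 CPM that a count of 0 would allow there, a limit that a few UMIs pass, so this says nothing particular about the members. Insm1 stood at 9.4 CPM, Neurod1 at 6.98, Neurog3 at 4.86 and Pax6 at 3.06 CPM. Etv1 stood at 2.79, Rfx6 at 2.61, Isl1 at 2.05, Lmx1a at 1.87 and Pax4 at 1.15 CPM. Of these barcodes 17 passed the Neurog3 gate, 14 the Tph1 gate and 83 the hormone gate. In the 83 barcodes Etv1 stood at 241 CPM (195 to 294) and Isl1 at 144 CPM (109 to 187), beside 338 and 261 CPM in the kept hormone-positive cells, and in the 14 barcodes Lmx1a stood at 136 CPM (86.1 to 204).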

How the results depend on the processing

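No paired analysis was possible because the matrix was treated as 1 sample, and no test was run. Over the alternatives, the number of Neurog3-positive cells ran from 154 to 225, of Tph1-positive cells from 166 to 221 and of hormone-positive cells from 154 to 270. The number of members higher in gated cells was 9 under each of 17 alternatives. Members apart between Neurog3-positive and other gated cells numbered 5 to 6 over 15 alternatives: Isl1 passed the rule at a log2 ratio of -1.10 with doubled gates and -1.02 without the 3 highest cells. Between Tph1-positive and hormone-positive cells the number was 4 to 6. There Neurog3 dropped to 0.70 with a pseudocount of 10 CPM, and Pax4 passed at 1.19 within set 2. Between the sets the count was 0 with the 3 classes weighted equally, an alternative added after seeing the data, and 2 under each other alternative. No member ratio past its rule changed direction under these alternatives in the comparisons named here. Other comparisons, such as those between gate combinations and between sets within single classes, were not run under alternatives. Pooled organoid lines, 1 matrix and the small classes, 21 cells with Neurog3 and hormones and 32 Gip-led cells, limit the precision.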
